A study of Canis lupus familiaris with 4 samples.

Results

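The collagen genes COL6A3, COL8A1, COL8A2, COL12A1, COL14A1 and COL16A1, which do not form the thick fibrils of connective tissue, were read from the gene counts of canine mammary ductal carcinoma and of the non-tumor mammary tissue beside it. They were picked by gene symbol as the fibril-associated, short-chain and beaded interstitial collagens, and they are 6 of the 11277 genes in the deposited counts. At most 26 of these genes had 0 counts in a library. Each share of all genes given below is a share of this set, not of every gene in the genome. The 4 libraries were 2 of carcinoma (T1 and T2) and 2 of adjacent non-tumor tissue (C1 and C2, the control), each made from the RNA of 3 female dogs mixed before library preparation. The tissue came from the mastectomies of 6 unspayed dogs of different breeds, aged 5 to 14 years, with early-stage disease. T1 and C1 come from the same dogs (pool 1), and T2 and C2 from the others (pool 2), so an n of 2 means 2 pools, and how single dogs vary cannot be seen. By the paper, the mean age was higher in pool 1 than in pool 2.

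Collagens are built from chains that wind into a triple helix. Types XII, XIV and XVI, encoded by COL12A1, COL14A1 and COL16A1, belong to the fibril-associated collagens, whose helices are interrupted and which sit on the surface of type I and other fibrils rather than forming fibrils themselves. Type VI collagen assembles into beaded microfilaments around cells and between fibrils, and COL6A3 encodes its large alpha-3 chain. Type VIII is a short-chain collagen, made of the chains encoded by COL8A1 and COL8A2, which builds open networks in vessel walls and under the corneal endothelium. In the mammary gland such collagens lie mainly in the stroma made by fibroblasts.

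Levels are given as CPM (a gene's counts relative to the library's total, scaled by the trimmed mean of M-values, TMM). The total was 35496260 counts in T1 and 32352002 in C1, and in pool 2 it was 3236218 in T2 and 4027367 in C2, so pool 2 limits the precision of the rare genes. Calls were made with edgeR's quasi-likelihood test at an adjusted p under 0.05 (Benjamini-Hochberg over all 11277 genes), and only where the log2 fold change reached 1 in size. A gene that missed either limit is said not to pass, so some such genes had an adjusted p under 0.05. Since bulk tissue was sequenced, fewer cells of a type and less RNA per cell cannot be told apart. The smallest p of an exact permutation test on 2 libraries a group is 0.333, so each call rests on a spread estimated over all genes.

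The 6 genes split in direction. COL8A1 and COL12A1 rose in carcinoma and COL14A1 and COL6A3 fell, while COL16A1 and COL8A2 had positive log2 fold changes that did not pass the test. The count of 2 called higher and 2 called lower stands beside 4.62% of all genes called higher and 5.24% called lower. DESeq2 called the same members, 2 in each direction, against 5.08% of all genes higher and 5.61% lower. The median log2 fold change of the 6 genes was 1.69 and that of all genes 0.03.

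COL8A1 changed the most of the 6 genes. It had 737 CPM in T1 and 680 CPM in T2, against 24.8 CPM in C1 and 24.6 CPM in C2. The libraries of a tissue lay close together and the tissues far apart. The mean was 709 ± 40.2 CPM in carcinoma and 24.7 ± 0.178 CPM in control (SD, n = 2 each), 28.7-fold higher in carcinoma (log2 fold change 4.84 ± 0.13 SE, edgeR adjusted p = 0.000891). COL8A1 ranked 10 of 11277 genes from the top by log2 fold change. Within pool 1 the ratio of T1 to C1 was 29.7 (95% interval 27.6 to 32.0), and within pool 2 the ratio of T2 to C2 was 27.7 (22.8 to 34.0). These intervals are exact and cover counting error only.

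**Figure D1:**
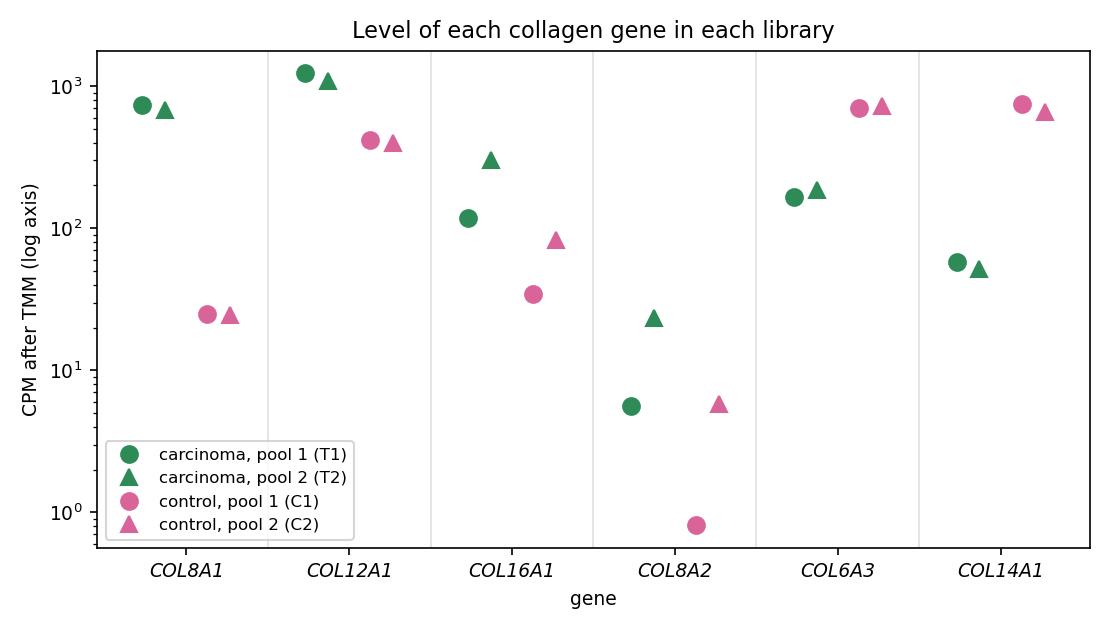
CPM after TMM (y axis, log scale) of the 6 genes (x axis) in each library, carcinoma in green to the left and control in pink to the right of each gene, circles for pool 1 and triangles for pool 2. COL8A1 lies at 737 and 680 CPM in carcinoma and at 24.8 and 24.6 CPM in control, while for COL8A2 the T1 and C2 symbols lie at about the same height (5.58 and 5.80 CPM).

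COL8A2, the other type VIII chain, was rare, with 195 counts in T1 and 78 in T2, against 24 counts in C1 and 25 in C2. As CPM this was 5.58 in T1 and 23.2 in T2, against 0.813 in C1 and 5.80 in C2. T1 lay just under C2, so the tissues overlapped. The log2 fold change was 2.34 ± 1.18 (SE, edgeR, adjusted p = 0.268). Within each pool, however, carcinoma was above control, 6.87-fold in pool 1 (95% interval 4.48 to 11) and 4.0-fold in pool 2 (2.52 to 6.56). With the pool as a replicate block, which compares T1 with C1 and T2 with C2, COL8A2 was called higher (log2 fold change 2.42 ± 0.24 SE, edgeR adjusted p = 3.35e-19).

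Within a library, the ratio of COL8A1 counts to COL8A2 counts does not depend on how libraries are scaled. It was 132 in T1 and 29.1 in T2, against 29.9 in C1 and 4.18 in C2. The ratio was larger in carcinoma within each pool, by 2.14 (pool 1) and 2.80 (pool 2) on the log2 scale. Across pools the tissues overlapped, with T2 just under C1, and the mean difference was 2.47 (exact permutation test, two-sided, p = 0.667, n = 2 each). This test ignores the pairing of the libraries and cannot give less than 0.333, so it cannot decide whether the ratio differs. Unequal change of the type VIII chains was thus seen in the same direction within each pool, with 2 pools only.

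Of the fibril-associated collagens, COL12A1 rose and COL14A1 fell. COL12A1, the chain of type XII, had 1230 CPM in T1 and 1090 CPM in T2, against 421 CPM in C1 and 396 CPM in C2. Both carcinoma libraries were above both controls, and the pools of a tissue differed little. The mean of 1160 ± 96.4 CPM in carcinoma was 2.84-fold that of 408 ± 17.4 CPM in control (SD, n = 2 each), a log2 fold change of 1.51 ± 0.12 (SE, edgeR adjusted p = 0.00350). The ratio was 2.92 in pool 1 (95% interval 2.87 to 2.98) and 2.76 in pool 2 (2.61 to 2.93).

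COL14A1, the chain of type XIV, had 57.7 CPM in T1 and 51.5 CPM in T2, against 749 CPM in C1 and 656 CPM in C2. Here both carcinoma libraries were far below both controls. The mean was 54.6 ± 4.43 CPM in carcinoma and 702 ± 66.0 CPM in control (SD, n = 2 each), 12.8-fold lower in carcinoma. The log2 fold change was −3.68 ± 0.14 (SE, edgeR, adjusted p = 0.00147), which ranked COL14A1 77 of 11277 genes from the bottom. The ratio of carcinoma to control was 0.0771 in pool 1 (95% interval 0.0736 to 0.0806) and 0.0785 in pool 2 (0.0669 to 0.0915).

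The ratio of type XII to type XIV counts differed between the tissues in both pools. There were 21.3 COL12A1 counts for each COL14A1 count in T1 and 21.2 in T2, against 0.561 in C1 and 0.604 in C2. The log2 ratio was 5.19 higher in carcinoma (5.25 in pool 1 and 5.13 in pool 2), with p = 0.333 by the exact two-sided permutation test over the 4 libraries, the smallest it can give, and no adjusted value under 0.4 over the 12 ratios computed. These counts are not corrected for gene length, which is the same in every library, so they compare tissues and not the amounts of the chains.

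**Figure D2:**
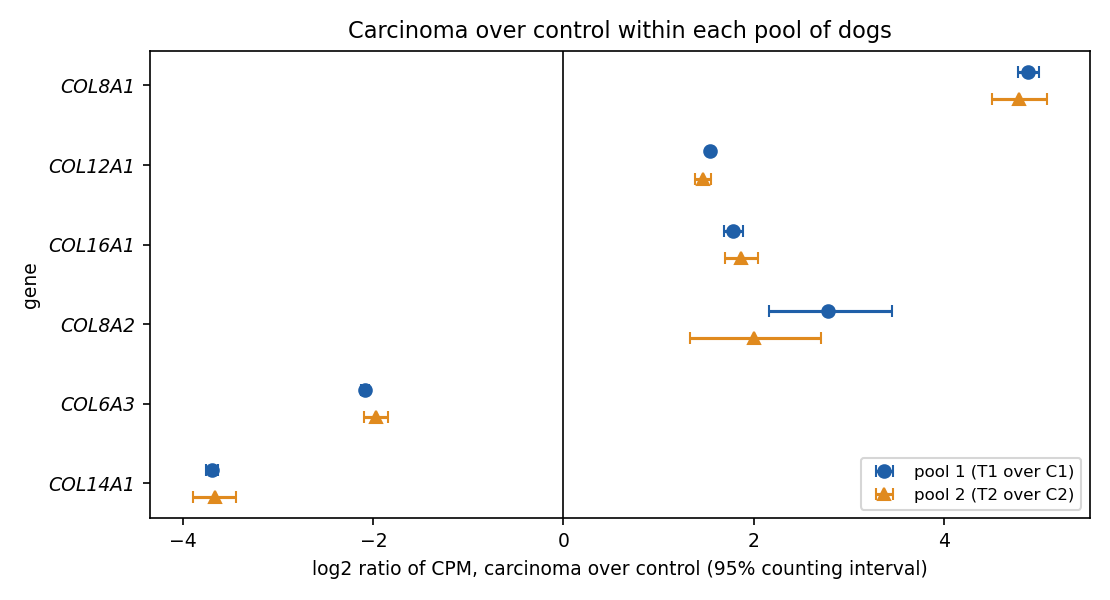
Log2 ratio of carcinoma to control (x axis) for each gene (y axis) within pool 1 (circles, T1 over C1) and within pool 2 (triangles, T2 over C2), with bars for the 95% counting interval. In each pool COL8A1, COL12A1, COL16A1 and COL8A2 lie above 0 and COL6A3 and COL14A1 below, and for COL16A1 the pools give 1.79 and 1.87.

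COL16A1, the chain of type XVI, had 118 CPM in T1 and 304 CPM in T2, against 34.3 CPM in C1 and 83.2 CPM in C2. Both carcinoma libraries were above both controls, but T1 was nearer to C2 than to T2. The log2 fold change was 1.87 (standard error 0.61) and did not pass the test (adjusted p = 0.123 by edgeR). The ratio of carcinoma to control was 3.45 in pool 1 (95% interval 3.22 to 3.70) and 3.66 in pool 2 (3.24 to 4.13). With the pool as a replicate block COL16A1 was called higher, at a log2 fold change of 1.82 ± 0.07 (SE, edgeR adjusted p = 3.47e-66). With 1 library left out, 1 tissue holds a single pool. The log2 fold change of COL16A1 moved with the library that was left out. It was 1.05 without T2 (adjusted p = 0.126 by edgeR), 1.28 without C1 (0.298), 2.36 without T1 (0.0180) and 2.60 without C2 (0.0300). In these fits the lone library is assumed to vary like those of the other tissue, so they carry no call for COL16A1. A long noncoding RNA overlaps COL16A1 in the RefSeq table, and since the strand setting of the counting is not known, reads of the pair cannot be told apart.

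The replicate block thus raised the members called higher to 4, and left 2 called lower, where 7.09% of all genes were called higher and 6.83% lower. The blocked fit leaves 1 residual degree of freedom for each gene, so its small p-values rest on the spread shared by all genes. By position alone, 3 of the 6 genes had both carcinoma libraries above both controls, against 29.6% of all genes, and 2 had both below, against 28% of all genes.

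COL16A1 and COL8A2 differed from the other members in their offset between the pools. COL16A1 was 2.57-fold higher in T2 than in T1 and 2.43-fold higher in C2 than in C1. COL8A2 was 4.16-fold higher in T2 than in T1 and 7.13-fold higher in C2 than in C1. The other 4 genes differed by 0.875 to 1.13-fold between pools in either tissue. Over the 10804 genes that reached 10 counts in all 4 libraries, the median log2 offset was 0.01 in carcinoma and −0.03 in control, with an SD of 0.50 in carcinoma and 0.51 in control. A larger offset than that of COL16A1 in both tissues was found in 1.30% of all genes, and a larger one than that of COL8A2 in 8 genes. The offset was not particular to these members. A log2 offset of at least 1 in both tissues was found in 5 of 27 measured collagen genes, against 3.77% of the 10804 genes. They were COL16A1, COL8A2, COL7A1, COL11A2 and COL5A1. With 8 counts in C2, COL11A2 is not among the 10804 genes.

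The deposited gene length moved weakly with this offset. In the lowest quartile of length the median log2 offset was 0.21 in carcinoma and 0.21 in control, and in the highest quartile it was −0.06 in carcinoma and −0.10 in control. COL8A2 had the shortest length of the members (4486 bases, 0.479 of its RefSeq span, where the other 4 members in that table had 0.991 to 1.02) and COL16A1 the next (49088 bases), while the others had 81423 to 216241 bases. Of the other collagen genes with an offset of at least 1 in both tissues, COL11A2 had 28877 bases, COL7A1 30497 and COL5A1 115193. The part of gene length, depth or the dogs of a pool in these offsets was not tested. Depth and dogs cannot be told apart here, since each pool differs in both.

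**Figure D3:**
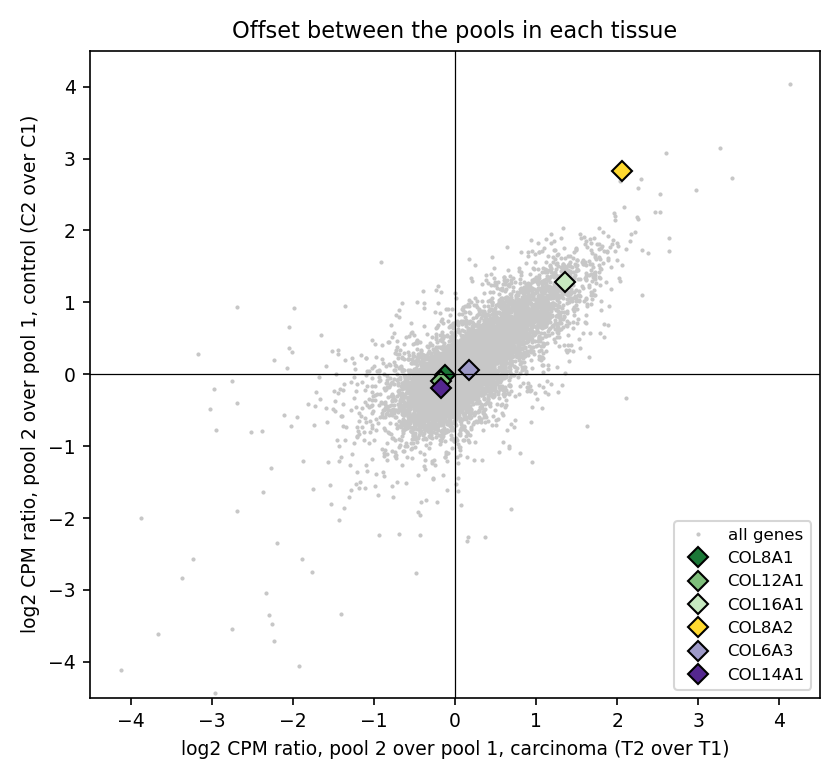
Log2 ratio of CPM in pool 2 to pool 1 within carcinoma (x axis, T2 over T1) and within control (y axis, C2 over C1), with 1 grey point per gene (0.1 CPM added) and diamonds for the 6 collagen genes; 10 genes lie outside the axes. COL8A2 (2.06 and 2.83) and COL16A1 (1.36 and 1.28) lie at the upper right, and the other 4 genes near the origin.

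COL6A3 was lower in carcinoma. It had 165 CPM in T1 and 186 CPM in T2, against 698 CPM in C1 and 730 CPM in C2. The carcinoma libraries were close to each other and far below both controls. The mean was 175 ± 14.8 CPM in carcinoma and 714 ± 22.4 CPM in control (SD, n = 2 each), 4.07-fold lower in carcinoma. Its log2 fold change was −2.03 ± 0.12 (SE, edgeR, adjusted p = 0.00195), with a ratio of 0.236 in pool 1 (95% interval 0.229 to 0.243) and 0.255 in pool 2 (0.233 to 0.278). The alpha-1 and alpha-2 chains with which it assembles are not analysed here. Of the chains related to alpha-3, COL6A5 had 4.29 CPM in T1 and 3.87 CPM in T2, against 4.2 CPM in C1 and 2.55 CPM in C2. COL6A6 had 10.3 CPM in T1 and 6.54 CPM in T2, against 18.2 CPM in C1 and 14.1 CPM in C2. Neither passed the test, with adjusted p = 0.729 for COL6A5 and 0.149 for COL6A6 by edgeR.

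The summed level of the 6 genes differed less between the tissues than did the share of each gene. It was 2330 ± 17.6 CPM in carcinoma and 1910 ± 23.0 CPM in control (SD, n = 2 each), 1.22-fold higher in carcinoma (exact permutation test, two-sided, p = 0.333, the smallest it can give). COL8A1 took 31.9% of the counts of the 6 genes in T1 and 29.1% in T2, against 1.29% in C1 and 1.30% in C2. COL12A1 took 53.2% in T1 and 46.7% in T2, against 21.8% in C1 and 20.9% in C2. These shares were higher in carcinoma, and those of COL14A1 and COL6A3 were lower.

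COL14A1 took 2.50% of these counts in T1 (exact 95% interval 2.39 to 2.61) and 2.20% in T2 (1.89 to 2.55), against 38.9% in C1 (38.5 to 39.3) and 34.6% in C2 (33.6 to 35.7). COL6A3 took 7.13% in T1 and 7.95% in T2, against 36.2% in C1 and 38.5% in C2. COL16A1 took 5.12% in T1 and 13% in T2, against 1.78% in C1 and 4.39% in C2, so its share moved with the pool as well as with the tissue.

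**Figure D4:**
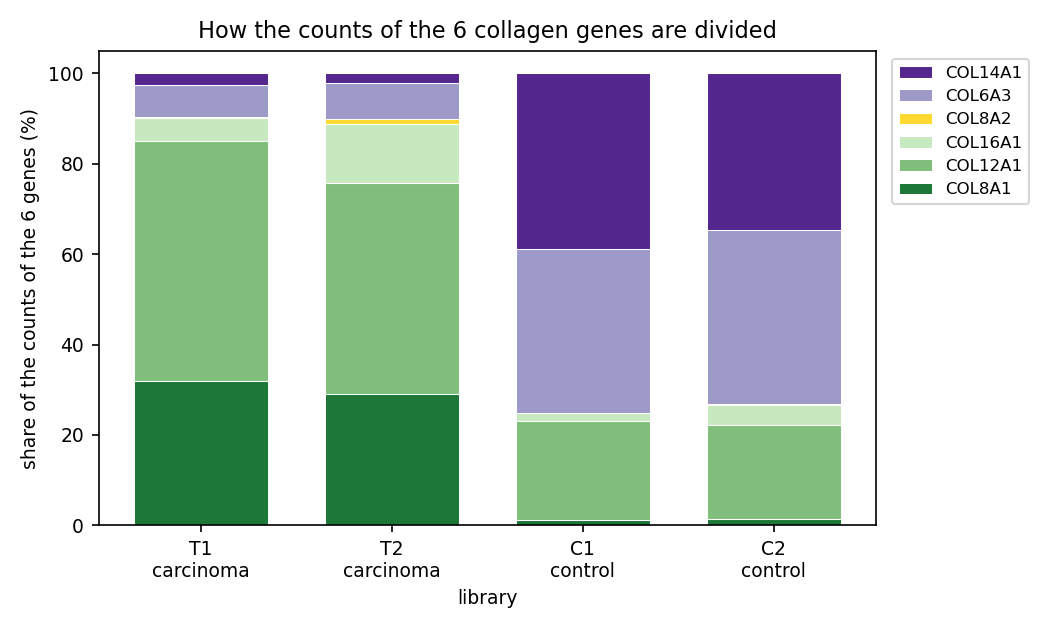
Share of the counts of the 6 genes (y axis, percent) taken by each gene in each library (x axis), not corrected for gene length. COL8A1 and COL12A1 fill most of the carcinoma bars, and COL14A1 (38.9% and 34.6%) and COL6A3 (36.2% and 38.5%) most of the control bars.

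Among the other non-fibrillar collagens, type IV not included, 11 of 21 listed genes were measured, of which COL23A1 was higher, COL21A1, COL28A1 and COL15A1 were lower and 7 did not pass. Their median log2 fold change was −0.71, against 0.03 for all genes, and with the replicate block 2 were higher and 4 lower. COL21A1, another fibril-associated collagen, had 9.41 CPM in T1 and 9.22 CPM in T2, against 61.2 CPM in C1 and 48.0 CPM in C2 (log2 fold change −2.55 ± 0.21 SE, edgeR adjusted p = 0.00350). It was thus lower, as COL14A1 was. COL28A1, a collagen with von Willebrand factor A domains, had a log2 fold change of −2.63 ± 0.23 (SE, edgeR adjusted p = 0.00379). COL15A1, a collagen of basement membrane zones, had one of −1.30 and the membrane-spanning COL23A1 one of 1.37. The fibril-associated type IX chains of cartilage did not pass. COL9A1 had 22.0 CPM in T1 and 21.4 CPM in T2, against 31.8 CPM in C1 and 39.9 CPM in C2 (adjusted p = 0.0858 by edgeR), and COL9A2 had an adjusted p of 0.386.

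Of the fibrillar collagens, 10 of 11 listed genes were measured, with COL2A1, COL11A1 and COL11A2 of the cartilage fibril higher, COL3A1 and COL5A3 lower and 5 that did not pass. Of these 5, COL5A2 missed only the fold threshold (log2 fold change 0.55, edgeR adjusted p = 0.0481). COL1A1, the main chain of the type I fibril, had 205 CPM in T1 and 463 CPM in T2, against 734 CPM in C1 and 1270 CPM in C2 (log2 fold change −1.59, adjusted p = 0.0943 by edgeR), and was called lower only with the replicate block (−1.67, adjusted p = 1.91e-78 by edgeR). Ratios to COL1A1, COL1A2 and COL3A1, chosen after the values were seen, set the members against these fibrils.

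COL12A1 had 5.99 counts per COL1A1 count in T1 and 2.36 in T2, against 0.573 in C1 and 0.311 in C2. COL14A1 had 0.281 counts per COL1A1 count in T1 and 0.111 in T2, against 1.02 in C1 and 0.515 in C2. Neither ratio overlapped between the tissues, and the same held relative to COL1A2, the other type I chain. Per COL1A2 count, COL12A1 had 1.29 in T1 and 0.827 in T2, against 0.248 in C1 and 0.182 in C2.

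COL6A3 had 0.804 counts per COL1A1 count in T1 and 0.402 in T2, against 0.951 in C1 and 0.573 in C2. The tissues overlapped (exact permutation test, two-sided, p = 0.667, n = 2 each), but within each pool carcinoma was lower, with a log2 difference of −0.24 in pool 1 and −0.51 in pool 2. Per COL1A2 count it was 0.172 in T1 and 0.141 in T2, against 0.411 in C1 and 0.336 in C2, with a log2 difference of −1.25 in each pool and no overlap (exact permutation test, p = 0.333, n = 2 each). Per COL3A1 count it was 0.170 in T1 and 0.141 in T2, against 0.266 in C1 and 0.240 in C2, with no overlap (exact permutation test, p = 0.333, n = 2 each). COL6A3 was thus lower relative to each of these chains in both pools, least so relative to COL1A1.

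**Figure D5:**
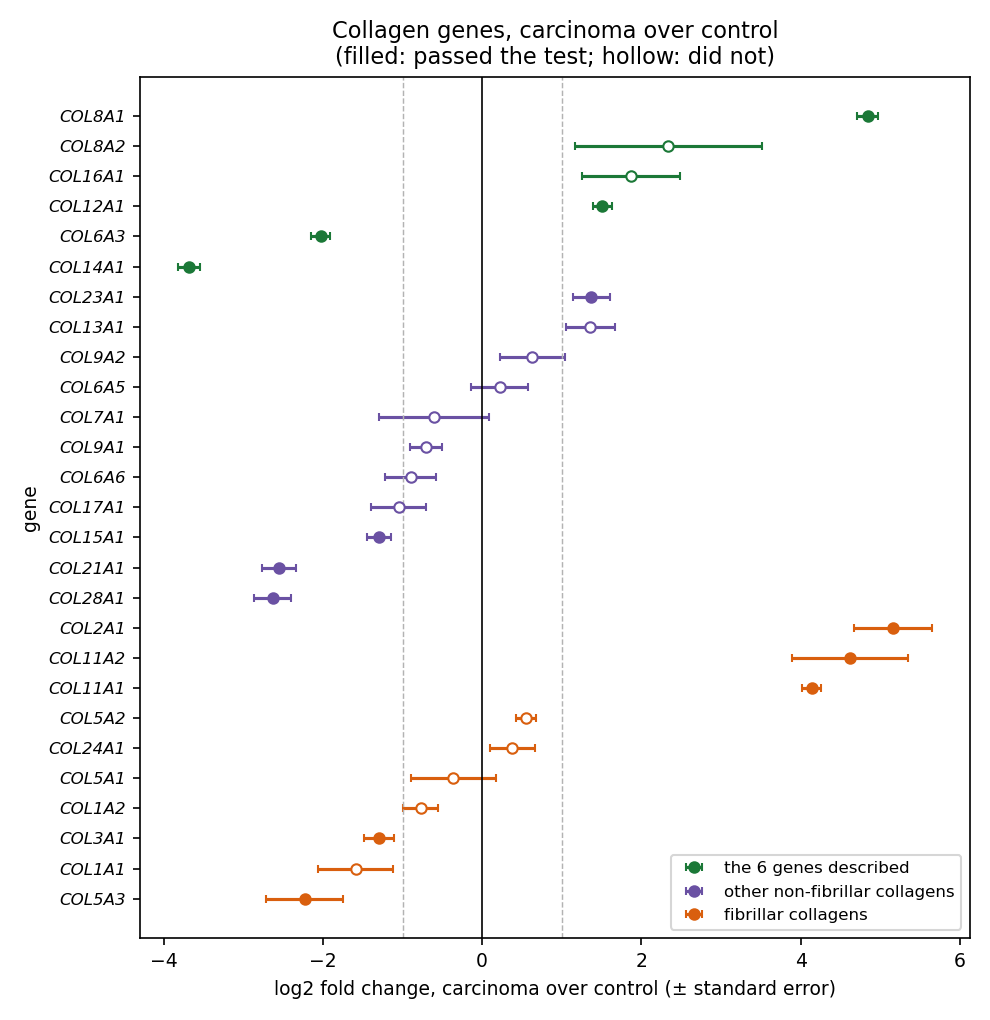
Log2 fold change of carcinoma over control (x axis, bars for the standard error of the edgeR fit) of 27 collagen genes (y axis), the 6 genes described in green, other non-fibrillar collagens in purple and fibrillar collagens in orange. Filled points passed the test and the fold threshold of 1 (dashed lines), such as COL8A1 at 4.84 and COL14A1 at −3.68, and hollow points did not.

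Among genes of collagen receptors, 11 of 14 listed genes were measured, of which DDR2 and ITGA10 were higher, ANTXR2 was lower and 8 did not pass, with a median log2 fold change of 0.37 (5 higher and 1 lower with the replicate block). DDR2, a receptor tyrosine kinase bound by fibrillar collagen, had 276 CPM in T1 and 290 CPM in T2, against 85.4 CPM in C1 and 83.2 CPM in C2 (log2 fold change 1.75 ± 0.11 SE, edgeR adjusted p = 0.00203). ITGA10, a collagen-binding integrin chain of chondrocytes, had a log2 fold change of 2.20 (adjusted p = 0.00669 by edgeR). ANTXR2, an anthrax toxin receptor that binds matrix proteins including type VI collagen, had one of −1.66 (adjusted p = 0.00545 by edgeR).

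ANTXR1, whose protein also binds type VI collagen, had 295 CPM in T1 and 287 CPM in T2, against 291 CPM in C1 and 256 CPM in C2 (log2 fold change 0.09 ± 0.12 SE, edgeR adjusted p = 0.666). CSPG4, the NG2 proteoglycan that binds type VI collagen, had 5.55 CPM in T1 and 35.1 CPM in T2, against 2.54 CPM in C1 and 8.58 CPM in C2. The tissues overlapped for both genes, and CSPG4 was called higher only with the replicate block (adjusted p = 2.76e-12 by edgeR). ANTXR1 and CSPG4 were chosen for their role after their values were seen.

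Among matrix proteins that bind at fibril surfaces, 10 of 13 listed genes were measured, with FMOD, TNC and MATN4 higher, DCN lower and 6 that did not pass (5 and 2 with the replicate block), and a median log2 fold change of 0.90. DCN encodes decorin, a small proteoglycan that binds collagen fibrils and types VI and XIV. It had 141 CPM in T1 and 111 CPM in T2, against 1190 CPM in C1 and 1010 CPM in C2 (log2 fold change −3.13 ± 0.18 SE, edgeR adjusted p = 0.00187). Like COL14A1 and COL6A3, DCN was lower in both pools. FMOD, which encodes fibromodulin, had 62.7 CPM in T1 and 82.1 CPM in T2, against 6.91 CPM in C1 and 8.58 CPM in C2. TNC, the gene of tenascin-C, had a log2 fold change of 1.41 (adjusted p = 0.00425 by edgeR).

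Of genes for collagen folding, modification and crosslinking, 27 of 31 listed genes were measured, and 23 did not pass. Of these 23, P3H2 (log2 fold change 0.92) and P4HA1 (0.83) missed only the fold threshold. LOXL3, PLOD2 and COLGALT2 were higher and TLL1 lower, with 7 higher and 1 lower under the replicate block and a median log2 fold change of 0.49. LOXL3, a lysyl oxidase that crosslinks collagen, had a log2 fold change of 2.21 (adjusted p = 0.00251 by edgeR), and PLOD2, a lysyl hydroxylase, one of 1.23 (adjusted p = 0.00615 by edgeR).

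For each member the genes with the most similar pattern were sought among 10128 genes with a symbol, by the distance between log2 CPM values centred over the 4 libraries. For COL8A1 these were CDH12 (distance 0.04), WDR49 (0.23) and SFRP2 (0.23). The nearest to COL12A1 were TSPAN8, ALK and NFKBIZ, each at 0.04, and the nearest to COL14A1 were CCBE1 (0.06), HPSE2 (0.11) and SLC13A1 (0.16). COL6A3 lay nearest to MYOT (0.06), COL4A4 (0.08) and ARMCX1 (0.10). PLOD1 (0.07), IGFBP2 (0.22) and SH3BP2 (0.23) were nearest to COL16A1, and SYT8 (0.22), INHBB (0.36) and CILP2 (0.44) to COL8A2. PLOD1 had 118 CPM in T1 and 297 CPM in T2, against 35.3 CPM in C1 and 80.9 CPM in C2, and was higher in pool 2 in both tissues, as COL16A1 was. Among themselves, the members closest to each other were COL8A2 and COL16A1 (1.20), and the farthest apart were COL8A1 and COL14A1 (8.52). With 4 libraries such distances describe these libraries only.

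Markers of several cell types also differed between the tissues. Of 10 measured markers of fibroblasts and pericytes, 5 were lower (MFAP5, CD34, PDGFRB, DPT and FAP) and 5 did not pass. With the replicate block 6 were lower. NOTCH3, 1 of those that did not pass, had a positive log2 fold change of 0.90. The summed level of the 10 markers was 234 to 304 CPM in carcinoma and 700 to 729 CPM in control. Of 7 measured markers of blood endothelium, 5 were lower, with sums of 330 to 335 CPM in carcinoma and 729 to 744 CPM in control. COL14A1 and COL6A3 were lower in the carcinoma libraries, as the sums of these lists were, and COL8A1 and COL12A1 were higher in the same libraries.

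Of 9 measured chondrocyte markers, which include 3 collagens named above, 5 were higher, with sums of 2600 to 2790 CPM in carcinoma and 347 to 348 CPM in control. Of the 4 not called, SOX5 (log2 fold change 0.96) and SOX9 (0.53) missed only the fold threshold. MATN3 had 0.39, and COL9A1 went the other way at −0.71. All 5 measured skeletal muscle markers were lower, with sums of 21.3 to 27.1 CPM in carcinoma and 1830 to 2940 CPM in control, and MYL2 and TNNT3 stood at 0 counts in T2. Of 8 measured luminal epithelium markers 3 were lower, with sums of 1270 to 1310 CPM in carcinoma and 1650 to 1800 CPM in control, and each had counts in every library. Of 8 measured smooth muscle and myoepithelial markers none was called, with sums of 983 to 1390 CPM in carcinoma and 716 to 896 CPM in control. Among them ACTG2 (log2 fold change −0.70, edgeR adjusted p = 0.0233) and MYH11 (0.66, edgeR adjusted p = 0.0385) missed only the fold threshold. None of 3 measured adipocyte markers was called, and 1 of 5 macrophage markers was called lower. With the replicate block, 2 smooth muscle and myoepithelial markers and 1 adipocyte marker were called higher. The counts of the chondrocyte, skeletal muscle, luminal and macrophage lists were the same with the block. The part of these cell types in the levels of the 6 collagen genes was not tested.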

How the data were processed

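The deposited tables hold whole-number counts per gene for 4 total RNA libraries (TruSeq Stranded kit), with no normalization, and a gene length close to the whole gene with its introns (median 0.970 of the span in RefSeq's table for UU_Cfam_GSD_1.0, over 9411 matched symbols, but 0.479 for COL8A2), so reads from introns may be counted. The paper names TopHat2 and HTSeq (at its default settings), the submitters' processing notes STAR, featureCounts and DESeq2. Which counting tool gave these counts is thus not known. Genome build and strand setting are not spelled out in those sources, so no coordinates are printed. Of the 6 members 5 matched that table.

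Totals ranged from 3236218 (T2) to 35496260 counts (T1). Replicates differed by more than counting error (chi-square per degree of freedom 31.7 in carcinoma and 46.1 in control). Counts were tested in R 4.3.3 with edgeR 4.0.16 (filterByExpr, which all genes passed, TMM, quasi-likelihood, prior count 2 for log2 CPM). Standard errors are the absolute log2 fold change over the square root of F. DESeq2 1.42.0, other scaling factors, other filters, a replicate block and each library left out were the alternatives. Code was tested on simulated data, and figures were drawn with matplotlib 3.10.9.

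By the paper, libraries with the same number come from the same dogs. Across genes (not independent replicates) the deviations of T1 and C1 from their group means had a correlation of 0.782. The pairing was used as a replicate block only in the alternative. Pools are separate sets of dogs.

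Members and lists were chosen with earlier results of these data known. Genes were named as members, as related type VI and fibril-associated chains, or as the 3 nearest patterns. Called genes of a list were named by smallest adjusted p, up to 4 a list. For the fibrillar collagens and the fibroblast and pericyte markers, all called genes were named. The ratios to COL1A1, COL1A2 and COL3A1, the values of COL1A1, ANTXR1 and CSPG4 and the pool offsets were chosen after values were seen. So were NOTCH3, MATN3 and the genes named for missing only the fold threshold.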

Additional observations from a re-analysis of the deposited data

How the results depend on the processing

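COL8A1, COL12A1, COL14A1 and COL6A3 kept their direction under each of 12 alternatives, and their call under each that kept all 4 libraries. The fit without a filter on low counts equalled the main fit, since all genes passed the filter. Over the 12, log2 fold changes were 4.74 to 4.90 for COL8A1 and 1.38 to 1.59 for COL12A1. They were −3.82 to −3.61 for COL14A1 and −2.11 to −1.99 for COL6A3. COL16A1 (1.05 to 2.60) and COL8A2 (1.05 to 4.06) kept their direction and became calls under some, with the replicate block in edgeR and also in DESeq2 (an alternative added after seeing the data). In both, 4 members were called higher. With one library left out, COL16A1 had 2.36 without T1, 2.60 without C2, 1.05 without T2 and 1.28 without C1. In each such fit one tissue has a single library that is assumed to vary like the other tissue's. No call is drawn from these fits. With the replicate block edgeR called 800 genes higher and DESeq2 called 746 higher and 760 lower, against 521 higher and 591 lower in edgeR without it. Leaving out one library gave 342 (without C1) to 509 genes higher and 421 to 548 lower, with 2 to 3 members higher and 2 lower. The cause of these moves was not tested. The log2 ratio of COL12A1 to COL14A1 was 5.14 to 5.24 and that of COL8A1 to COL8A2 was 1.05 (without C2) to 3.89 (without C1), with 1.38 without T1 and 3.56 without T2, when one library was left out. With T2 and C2 as the shallower libraries, COL8A2, with 24 to 195 counts, is the member whose values counting error limits most.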
